A study of Mus musculus with 32 samples.

Results

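Hepatic transcripts of 9 apolipoproteins (Apoa1, Apoa2, Apoa4, Apoa5, Apob, Apoc1, Apoc2, Apoc3 and Apoe) and of microsomal triglyceride transfer protein (Mttp) are described here, 10 of the 20076 genes whose reads were counted. The genes were chosen by name and function, with earlier results of these data known. Reads were counted in samples labelled liver from 32 male C57BL/6J mice, 4 in each of 8 groups that combined 2 genotypes, 2 diets and 2 feeding states. The genotypes were the Acadm knockout, which lacks medium-chain acyl-CoA dehydrogenase (MCAD-KO, KO below), and littermate wild-type mice (WT). The diets were semisynthetic, low (LF) or high (HF) in fat, and lasted 6 weeks. Fed mice stayed on their diet until the end, whereas fasted mice had no food for the last 16 h. Ages were labelled 7.5 to 16 without a unit. The deletion is carried by every cell of the KO mice, and no group is treated in any other way. Expression is given as CPM, the counts of a gene relative to all counts of its library, scaled between libraries by the trimmed mean of M values (TMM). A gene was called changed at an adjusted p below 0.05 in the quasi-likelihood F test of edgeR, where p-values were adjusted by Benjamini-Hochberg over every gene tested. The p-values measure the spread between mice of these groups.

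Hepatocytes export triglyceride as very low density lipoprotein (VLDL). Apolipoprotein B is the single large structural protein of each particle, and Mttp loads it with lipid in the endoplasmic reticulum while it is still being made. The smaller, exchangeable apolipoproteins move between VLDL and high density lipoprotein (HDL) in plasma: Apoa1 and Apoa2 are the main proteins of HDL, Apoc2 activates lipoprotein lipase, Apoc3 and Apoc1 slow the clearance of triglyceride, Apoa5 promotes it, and Apoe is the ligand for uptake by the liver. Apoa4 is made by the intestine and, in rodents, also by the liver. During fasting, fatty acids from adipose tissue reach the liver, where they are oxidized or exported again in VLDL.

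Of the 32 libraries, 2 stood apart and were left out of the 30 on which the values rest. KO HF fasted replicate 4 held 35496 CPM of 12 heart markers, against at most 60.1 CPM in the 30 mice, and 1023 CPM of 10 hepatocyte markers, against at least 51516 CPM. In it the 10 genes took 0.0644% of all counts, whereas they took 3.34% ± 0.35 (SD, n = 30; range 2.78% to 4.61%) elsewhere. WT LF fed replicate 2 held 43647 CPM of the hepatocyte markers and 1035 CPM of 8 stellate cell markers, which reached at most 621 CPM in the 30 mice, and the 10 genes took 2.33% of its counts. The WT LF fed and KO HF fasted groups therefore hold 3 mice and the others 4. Total counts ranged from 2031053 to 4292200 per mouse (median 2899001). Acadm, the deleted gene, averaged 18.7 ± 7.94 CPM over the 15 KO mice and 452 ± 196 CPM over the 15 WT mice (SD), and the ranges did not overlap. Among the 30, WT HF fasted replicate 2 (17484 CPM) and KO HF fed replicate 1 (2561 CPM) held far more acinar pancreas marker RNA than the next mouse (56.2 CPM). The sum of 6 adrenal cortex markers reached 282 CPM in KO LF fasted mice (group median 61.7 CPM), against a median of 1.31 CPM over the 30 mice. For the average fasting effect and for fasting by diet, calls with the left-out mice kept and with the acinar pancreas mice left out are also given. Within single strata only the number of called members with the left-out mice kept is given, without naming which members they were. Ranges without overlap are those of the 30 mice, and some overlap with WT LF fed replicate 2 kept. In liver tissue, fewer cells of a type and less RNA per cell cannot be told apart.

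The sequence just before the transcription start is printed for 6 of the 7 members that were called higher in fasted mice, because 4 of them, Apoa4, Apoa1, Apoa5 and Apoc2, lie in gene clusters beside neighbours that were not called. Each line gives 100 bases, 5′ to 3′ on the strand of the gene, ending just before the earlier of the starts annotated by RefSeq and GENCODE vM21. The sequences are those of RefSeq on GRCm38.p6, and capitals mark the motifs named after them. They lie at chr9:46240596-46240695 (plus strand) for Apoa4, chr9:46228480-46228579 (plus) for Apoa1, chr9:46268508-46268607 (plus) for Apoa5, chr1:171224954-171225053 (plus) for Apoa2, chr12:7977548-7977647 (plus) for Apob and chr7:19677942-19678041 (minus) for Apoc2.
Apoa4: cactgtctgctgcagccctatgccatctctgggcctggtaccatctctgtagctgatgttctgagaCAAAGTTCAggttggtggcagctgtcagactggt
Apoa1: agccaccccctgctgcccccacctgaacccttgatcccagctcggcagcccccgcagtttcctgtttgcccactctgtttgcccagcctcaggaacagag
Apoa5: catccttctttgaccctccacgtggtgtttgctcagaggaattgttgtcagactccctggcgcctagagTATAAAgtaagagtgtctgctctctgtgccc
Apoa2: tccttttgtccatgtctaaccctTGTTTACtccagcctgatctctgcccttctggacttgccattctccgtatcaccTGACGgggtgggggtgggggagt
Apob: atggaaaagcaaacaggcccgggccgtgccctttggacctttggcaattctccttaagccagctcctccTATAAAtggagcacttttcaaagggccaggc
Apoc2: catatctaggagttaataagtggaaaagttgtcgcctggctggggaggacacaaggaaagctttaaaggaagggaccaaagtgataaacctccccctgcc
Both strands were searched for 5 motifs, none of which contains another: the nuclear receptor element AGGTCA, the HNF4-type site CAAAGTNCA, the forkhead site TGTTTAC, the TATA box TATAAA and the core TGACG of the cyclic AMP response element. Of 32851 RefSeq promoter windows of 300 bases, 16.3%, 1.41%, 3.65%, 13.6% and 20.8% hold them, in that order. The printed stretches of 100 bases are shorter, so these shares do not apply to them. Apoa4 has an HNF4-type match in the printed stretch, Apoa5 and Apob each have a TATA box, and Apoa2 has a forkhead match and a TGACG. The N of the HNF4-type site was admitted after the sequences had been seen, so the Apoa4 match is a description only. No match was found in the printed stretches of Apoa1 and Apoc2, which says only that these letters are not there. In its window of 300 bases, Apoc2 held AGGTCA outside the printed stretch and a TGACG, on the other strand, that crosses its first bases. Outside its printed stretch Apoa2 held a TATA box and, in another window, AGGTCA, whereas Apoa1 held none of the 5 motifs. Mttp, the called member that is not printed, held TGACG in its window. Apoe, which was not called, held a TATA box and, in another window, a forkhead match. A link between these motifs and fasting was not tested. RefSeq windows were found for 8 of the 10 members; Apoc1 and Apoc3 are named only.

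Fasting was the factor with which these genes moved. As the average over both genotypes and both diets, 7 of the 10 were called higher in fasted mice and 0 lower, where 18.9% of the 11566 genes tested were called, 9.77% of them higher and 9.14% lower. Apoa4 rose most, by 1.91 ± 0.30 on the log2 scale (SE; 3.77-fold, adjusted p = 4.06e-05), followed by Apoa1, Mttp, Apoa5, Apob, Apoc2 and Apoa2, which rose by 0.54 to 0.24. Apoc1 (0.00 ± 0.10), Apoc3 (0.03 ± 0.08) and Apoe (0.07 ± 0.07) did not pass the test, with 95% intervals that reach no further than 0.22 and no lower than -0.19. The median of the 10 was 0.33, against -0.002 over all genes tested. Libraries scaled by total counts alone gave 765 genes higher and 1561 lower in place of 1130 and 1057, and 5 members called, with Apoa2 and Apoc2 lost. Because WT LF fed mice were all on lane 8, the effect was also fitted within lanes: 1 member, Apoa1, was called in lane 7, and 5 in lane 8 (Apoa1, Apoa4, Apoa5, Apoc2 and Mttp). Calls over all genes were fewer in both lanes too, with 344 genes in lane 7 against 2187 in the 30 mice. Log2 differences in lane 7 were 0.54 for Apoa1, 0.48 for Mttp, 0.42 for Apoa5 and 0.23 for Apoa2, close to those in all 30 mice. That of Apob, 0.49, was higher than in all 30 mice, and those of Apoa4 (1.23) and Apoc2 (0.16) were lower. The lane fits used additive terms for genotype, diet and feeding. Since lane 7 holds no fed WT LF mouse, its values do not average the same strata, and a difference between lanes was not tested. With all 32 mice Apoa4 alone was called, with the heart-like library left out and WT LF fed replicate 2 kept 6 members were called, Apoc2 being lost (adjusted p = 0.11), and without the acinar pancreas mice all 7 were. Calls over all genes in these last settings are not given here, so the member counts cannot be set against them.

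**Figure D1:**
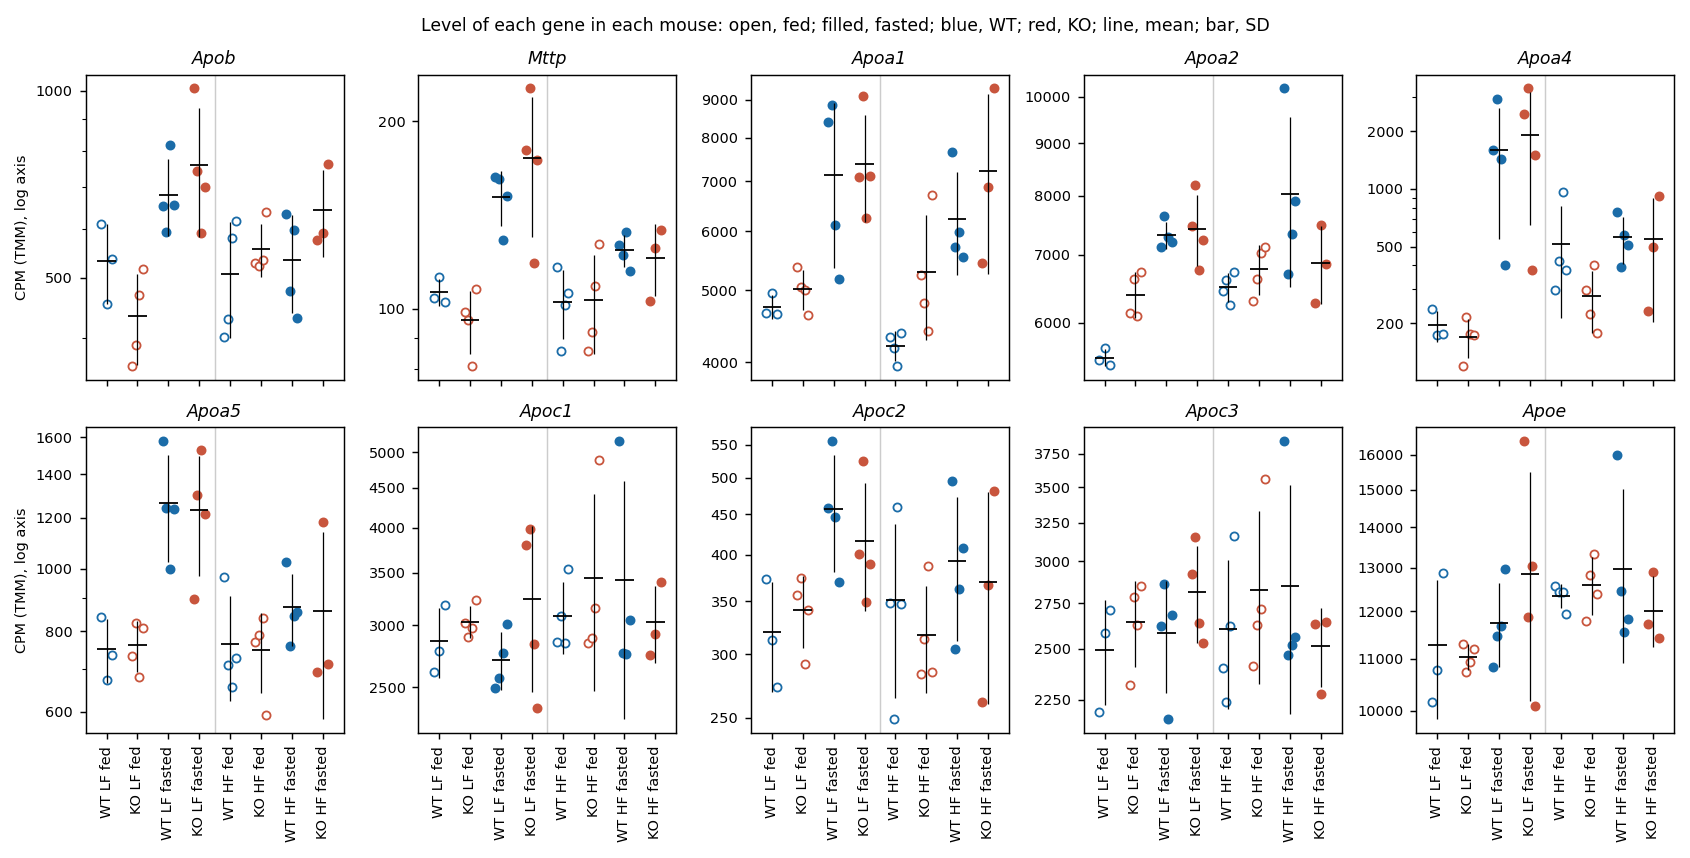
Level of each of the 10 genes in each of the 30 mice, in CPM on a log axis, by group. Each circle is a mouse, open when fed and filled when fasted, blue for WT and red for KO; the line is the group mean and the bar the SD. Apoa4 in LF mice separates fed (at most 237 CPM) from fasted mice (at least 379 CPM), while Apoc1 and Apoc3 show fed and fasted groups that overlap.

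Apob and Mttp are the members on which particle assembly rests. Apob (chromosome 12, 7977648 to 8016835) stood in KO LF mice at 360, 389, 470 and 517 CPM when fed and at 1008, 743, 590 and 699 CPM when fasted, and every fasted mouse was above every fed mouse. It rose there by 0.81 ± 0.18 on the log2 scale (1.76-fold, adjusted p = 0.0011). In WT LF mice it was at 610, 453 and 536 CPM in fed and 653, 594, 818 and 655 CPM in fasted livers, where the ranges met and the difference of 0.36 ± 0.19 did not pass (adjusted p = 0.29). In HF mice the fed and fasted values overlapped in both genotypes: 402, 430, 578 and 617 against 634, 477, 597 and 432 CPM in WT, and 529, 523, 534 and 637 against 576, 590 and 761 CPM in KO. The log2 differences there were 0.07 ± 0.17 and 0.21 ± 0.19 (adjusted p = 0.95 and 0.92). Averaged over the strata, Apob rose by 0.36 ± 0.09 (adjusted p = 0.0030).

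Mttp (chromosome 3, 138089854 to 138144968, minus strand) had 230 to 875 counts per mouse. It was at 104, 113 and 103 CPM in fed WT LF mice and at 163, 161, 129 and 152 CPM in fasted ones, a separation without overlap whose log2 difference of 0.52 ± 0.17 missed the threshold (adjusted p = 0.064). In KO LF mice it was at 99.0, 96.0, 80.9 and 108 CPM when fed and at 180, 226, 119 and 174 CPM when fasted, again without overlap, and rose by 0.87 ± 0.16 (1.83-fold, adjusted p = 0.00019). In HF mice the medians were higher in fasted livers but ranges met: 117, 85.7, 101 and 106 against 127, 122, 133 and 115 CPM in WT (0.27 ± 0.16, adjusted p = 0.65), and 85.6, 91.7, 109 and 127 against 103, 125 and 134 CPM in KO (0.22 ± 0.17, adjusted p = 0.88). Over the 15 fed and 15 fasted mice Mttp was at 102 ± 12.5 and 144 ± 31.9 CPM (SD), and it rose on average by 0.47 ± 0.08 (adjusted p = 4.43e-05). The antisense neighbour Trmt10a, which overlaps Mttp, had 21 to 75 counts per mouse, and the strand setting of the count is not given in the sources used here.

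Apoa1 and Apoa2, the HDL proteins, also rose. Apoa1 (chromosome 9, 46228580 to 46230466) was at 4654, 4950 and 4647 CPM in fed and 8409, 8850, 6117 and 5170 CPM in fasted WT LF mice, and rose by 0.60 ± 0.19 (adjusted p = 0.040). In KO LF mice it was at 5379, 5049, 5004 and 4627 CPM when fed and 7091, 9102, 6240 and 7109 CPM when fasted, a rise of 0.56 ± 0.17 (adjusted p = 0.021). Every fasted LF mouse was above every fed LF mouse of its genotype. Apoa1 was also the only member whose values separated on the HF diet, in WT mice, with 4329, 4179, 3951 and 4383 CPM when fed and 7666, 5705, 5978 and 5533 CPM when fasted; its difference of 0.56 ± 0.17 had an unadjusted p of 0.0022 and an adjusted p of 0.14. In KO HF mice, with 5239, 4807, 4406 and 6716 against 5441, 6879 and 9322 CPM, ranges overlapped (0.45 ± 0.18, adjusted p = 0.47). The difference between the fasting effects on the HF and LF diets was -0.08 ± 0.18 (95% interval -0.43 to 0.28, adjusted p = 0.93).

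Apoa2 (chromosome 1, 171225054 to 171226379) was at 5508, 5670 and 5457 CPM in fed WT LF mice and at 7122, 7637, 7287 and 7203 CPM in fasted ones, with no overlap and little spread. The difference of 0.41 ± 0.14 had an adjusted p of 0.072. In KO LF mice the fed values (6134, 6616, 6093 and 6734 CPM) were below all fasted values (7459, 8202, 6766 and 7238 CPM), with a difference of 0.22 ± 0.13 (adjusted p = 0.31). On the HF diet the group means were 6503 ± 209 and 8029 ± 1525 CPM in fed and fasted WT mice and 6767 ± 380 and 6866 ± 607 CPM in KO mice (SD), and ranges overlapped. Only the average over strata passed, at 0.24 ± 0.07 (1.18-fold, adjusted p = 0.0094), and it did not pass when libraries were scaled by total counts alone (0.15, adjusted p = 0.11).

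**Figure D2:**
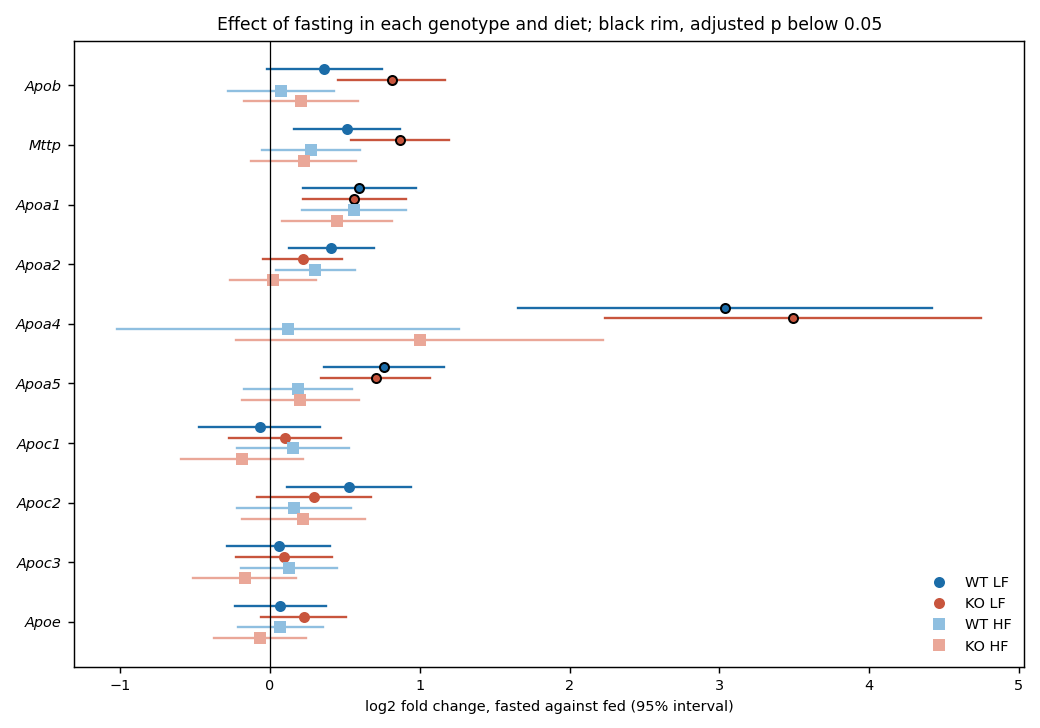
Log2 fold change of each gene, fasted against fed, in each genotype and diet, with 95% intervals from edgeR. Circles are LF and squares HF, blue is WT and red KO, and a black rim marks an adjusted p below 0.05. The 8 rimmed points all belong to LF mice, and those of Apoa4 lie at 3.04 and 3.49.

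Within strata, the calls fell in the LF mice. Of the 10 members, 3 were called in WT LF mice (Apoa1, Apoa4 and Apoa5), where 7.54% of all genes were, and 5 in KO LF mice (Apoa1, Apoa4, Apoa5, Apob and Mttp), where 13.8% were. In HF mice edgeR called 0 members in either genotype, with 2 in WT and 1 in KO at an unadjusted p below 0.05 (9.19% and 7.53% of all genes). DESeq2 and limma voom also called 0. Of all genes, 0.424% were called in WT HF and 0.527% in KO HF mice. A count by ranges gave the same contrast without a test. The fasted mice lay above all fed mice for 5 members in WT LF (9.67% of all genes did so), 6 in KO LF (6.56%), 1 in WT HF (3.22%) and 0 in KO HF mice (5.34%). With the genotypes pooled, 4 members separated 8 fasted from 7 fed LF mice (Apoa2, Apoa4, Apoa5 and Mttp, where 2.83% of all genes did). Apoa4 counts as separated in WT LF and in pooled LF mice only without WT LF fed replicate 2 (784 CPM). The count of called members in WT LF mice rests on few mice. It fell to 1 without WT LF fasted replicate 1, without WT LF fed replicate 3 or without WT LF fed replicate 4, and was 5 without KO LF fasted replicate 1. With WT LF fed replicate 2 kept, 5 members were called in WT LF and 4 in KO LF mice, and with all 32 mice 0 and 1. Under total count scaling the counts were 2 and 4, and the median of all genes moved from -0.003 to -0.10 in WT LF and from 0.009 to -0.17 in KO LF mice.

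Apoa4 showed the greatest response and the greatest spread. The gene lies at chromosome 9, 46240696 to 46243459, where an antisense gene, Gm10680, had at most 1 count in any mouse. In fed LF mice Apoa4 was at 237, 173 and 175 CPM in WT and at 119, 215, 175 and 173 CPM in KO. In fasted LF mice it was at 1593, 2951, 1430 and 403 CPM in WT and at 2462, 3333, 379 and 1494 CPM in KO. All fasted LF mice lay above all fed LF mice, but the fasted values themselves spanned nearly an order of magnitude, WT replicate 4 and KO replicate 3 being the lowest. The rise was 3.04 ± 0.67 on the log2 scale in WT (8.23-fold, adjusted p = 0.0044) and 3.49 ± 0.61 in KO (11.2-fold, adjusted p = 0.00032).

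On the HF diet, fed mice already had Apoa4 at 297, 422, 964 and 377 CPM in WT and 298, 224, 402 and 178 CPM in KO, and the WT values lay above all 3 fed WT LF mice. The left-out WT LF fed replicate 2 (784 CPM) lay within the range of these WT values. Fasted HF mice were at 758, 390, 579 and 513 CPM in WT and at 231, 501 and 921 CPM in KO. The fasted WT values lay within the range of the fed ones, and in KO the ranges overlapped. The fasting difference was 0.12 ± 0.55 in WT HF (adjusted p = 0.97) and 1.0 ± 0.59 in KO HF mice (adjusted p = 0.79). The fasting effect was smaller on the HF than on the LF diet, with a difference of -2.71 ± 0.59 log2 units (edgeR interaction, 95% interval -3.93 to -1.48, adjusted p = 0.015), and Apoa4 was the only member called in this comparison, in which 2.46% of all genes were. The estimate was -2.92 ± 0.84 in WT and -2.49 ± 0.83 in KO mice alone, neither of which passed in edgeR (adjusted p = 0.23 and 0.22, where 0.19% and 0.519% of all genes did). DESeq2 called 1 member in WT and 0 in KO mice, and limma voom 0 in both. With sequencing lane as a term the edgeR interaction over both genotypes was -2.61 (adjusted p = 0.033). It was not fitted within lanes. Lane 7 holds no fed WT LF mouse, and lane 8 holds only 1 KO LF fasted and 1 WT HF fed mouse.

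The call of this diet difference depended on a single mouse. The left-out WT LF fed replicate 2 had 784 CPM of Apoa4, above the 3 other mice of its group by more than their whole range. With this mouse kept the interaction was -2.30 ± 0.63 and was no longer called (adjusted p = 0.068), and with all 32 mice it was -2.50 ± 0.75 (adjusted p = 0.16). Without the acinar pancreas mice it was -2.62 ± 0.63 (adjusted p = 0.040). Of 8 small intestine markers 4 are in the table, and their sum was 133 to 186 CPM in fed LF, 122 to 370 CPM in fasted LF, 80.6 to 330 CPM in fed HF and 167 to 350 CPM in fasted HF mice. Nearly all of it was Fabp2 (79.8 to 350 CPM); Vil1 was at 0 counts in 23 of the 30 mice and at most 1.13 CPM, and Sis was at 0 counts in 29.

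**Figure D3:**
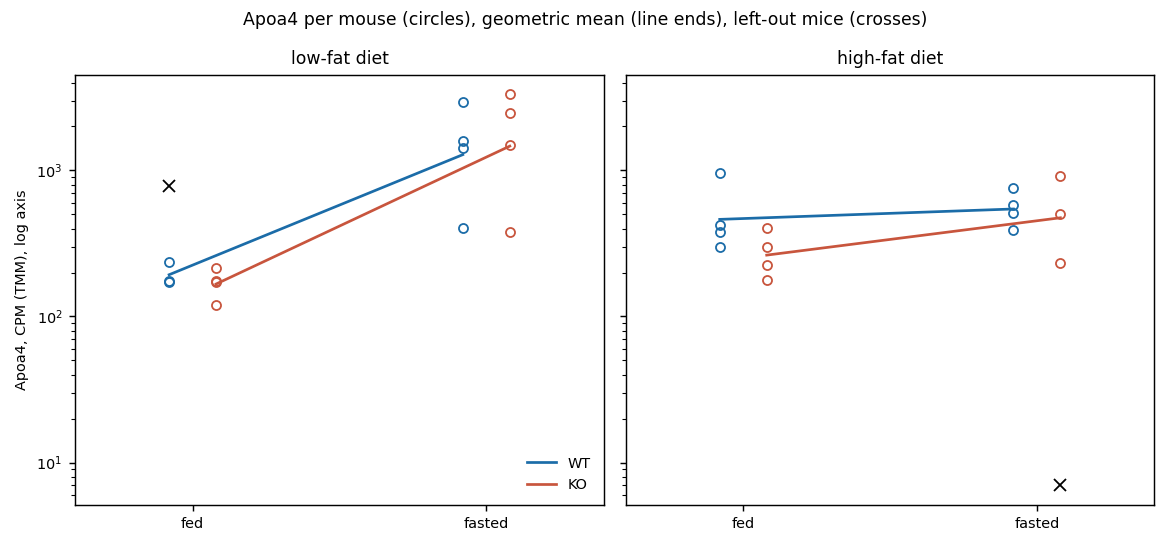
Apoa4 in CPM (log axis) in fed and fasted mice on each diet. Circles are mice, line ends geometric means, blue is WT and red KO, and crosses are the 2 left-out libraries. On the LF diet the lines climb steeply in both genotypes, and on the HF diet the mice of both feeding states share a range. The cross at 784 CPM is the fed WT LF mouse on which the call of the diet difference depends.

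The same interaction was negative for each of the 10 members, with a median of -0.19 against -0.01 over all genes, but it passed for Apoa4 only. The next were Apoa5 (-0.54 ± 0.19, unadjusted p = 0.0065, adjusted p = 0.13), Apob (-0.45 ± 0.18, adjusted p = 0.24) and Mttp (-0.44 ± 0.17, adjusted p = 0.19). The signs of the small values of Apoa1, Apoc1 and Apoc3 turned when libraries were scaled by total counts, and those of Apoa1 and Apoc1 also when single mice were left out. The members share mice and libraries, so that their common sign is a description. No member had a fasting effect or diet effect that differed between genotypes (edgeR, 0 of 10 called and 0 at an unadjusted p below 0.05, DESeq2 and limma voom also 0). Of all genes 0% were called in either comparison, and 4.95% and 3.43% had an unadjusted p below 0.05.

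Apoa5, which lies beyond Apoa4 on the same chromosome (46268633 to 46271919), separated fed from fasted mice on the LF diet. It was at 842, 673 and 736 CPM in fed and 1576, 1241, 998 and 1236 CPM in fasted WT mice, and at 732, 824, 679 and 809 CPM in fed and 897, 1300, 1528 and 1214 CPM in fasted KO mice. It rose by 0.76 ± 0.20 in WT (1.69-fold, adjusted p = 0.010) and by 0.71 ± 0.18 in KO (1.63-fold, adjusted p = 0.0056). On the HF diet the means were 766 ± 141 (fed) and 872 ± 111 CPM (fasted) in WT and 748 ± 107 and 861 ± 277 CPM in KO mice (SD), and the differences of 0.19 ± 0.18 and 0.20 ± 0.19 did not pass. Among fasted mice, Apoa5 was lower on HF than on LF diet by 0.53 ± 0.18 in WT and 0.53 ± 0.20 in KO (log2 differences -0.53 and -0.53, adjusted p = 0.16 and 0.18). Without KO HF fasted replicate 2, which with 1181 CPM stood above the 691 and 712 CPM of its group, the fasting by diet difference of Apoa5 was -0.69 and was called (adjusted p = 0.030). It was also called without KO LF fasted replicate 1 (-0.60, adjusted p = 0.045).

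Apoc2, the activator of lipoprotein lipase (chromosome 7, 19671579 to 19677941, minus strand), was at 373, 313 and 273 CPM in fed and 458, 556, 447 and 370 CPM in fasted WT LF mice, and the lowest fasted mouse lay below the highest fed one. In KO LF mice it was at 356, 374, 292 and 341 CPM when fed and 402, 526, 350 and 389 CPM when fasted. The HF means were 351 ± 86.0 and 393 ± 80.3 CPM in fed and fasted WT, and 317 ± 48.6 and 370 ± 110 CPM in KO mice (SD). No stratum passed, and the average rise of 0.30 ± 0.10 (1.23-fold, adjusted p = 0.026) was lost without WT HF fasted replicate 1 (adjusted p = 0.052), KO HF fasted replicate 3 (0.088) or WT LF fed replicate 4 (0.060), and under total count scaling (0.14).

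Apoc1 (chromosome 7, 19689481 to 19692660, minus strand) ranged over the fed mice from 2614 to 4887 CPM with a median of 2978, and over the fasted mice from 2350 to 5161 CPM with a median of 2840. Apoc3 (chromosome 9, 46232933 to 46235636, minus strand) ranged from 2195 to 3559 CPM in fed mice (median 2625) and from 2160 to 3849 CPM in fasted mice (median 2632). Apoe (chromosome 7, 19696109 to 19699188, minus strand) ranged from 10162 to 13343 CPM in fed mice (median 11949) and from 10086 to 16395 CPM in fasted mice (median 11838). In each of the 3 genes neighbouring groups in the order of means overlapped throughout, and the sign of the average fasting effect turned under total count scaling (Apoc1 -0.09, Apoc3 -0.06, Apoe -0.02). Single mice with high values of several members were WT HF fasted replicate 1, with 5161 CPM of Apoc1, 3849 CPM of Apoc3 and 15990 CPM of Apoe, and KO HF fed replicate 4, with 4887 CPM of Apoc1 and 3559 CPM of Apoc3.

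Ordered by group mean, the 2 fasted LF groups held the highest ranks for Apoa4, Apoa5, Apob, Apoc2 and Mttp, while Apoa2 was led by WT HF fasted mice. The means of the 4 fasted groups stood above those of the 4 fed groups for Apoa1, Apoa2, Apoa4, Apoa5, Apoc2 and Mttp. For Apoa1 they ran from 7385 ± 1214 CPM in KO LF to 6221 ± 981 CPM in WT HF fasted mice and from 5292 ± 1009 CPM in KO HF to 4211 ± 193 CPM in WT HF fed mice (SD). Over all 10 genes, only 2 pairs of neighbours in these orders had ranges that did not overlap, the lowest and second lowest groups of Apoa1 (WT HF fed below WT LF fed) and of Apoa2 (WT LF fed below KO LF fed). With WT LF fed replicate 2 (2528 CPM of Apoa1) kept, the Apoa1 ranges overlap.

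Members of both clusters are given here in their order along the chromosome, and differences between neighbouring genes were not tested. On chromosome 9, Apoa1, Apoc3, Apoa4 and Apoa5 lie within 43.34 kb, Apoc3 being on the minus strand between Apoa1 and Apoa4, and fasting effects along it were 0.54, 0.03, 1.91 and 0.46. Ratios of counts within a library do not depend on how libraries are scaled. The ratio of Apoa1 to Apoc3 counts was 1.83 ± 0.25 (SD, n = 15; 1.39 to 2.32) in fed and 2.6 ± 0.49 (n = 15; 1.93 to 3.53) in fasted mice. The ratio of Apoa4 to Apoc3 was 0.0799 in fed and 0.613 in fasted WT LF mice, and 0.0640 and 0.658 in KO LF mice. On the HF diet it was 0.200 and 0.196 in WT and 0.102 and 0.219 in KO mice. Over all mice, that of Apoa5 to Apoc3 was 0.291 ± 0.0581 in fed and 0.402 ± 0.114 in fasted mice.

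On chromosome 7, Apoe, Apoc1, Apoc4 and Apoc2 follow each other on the minus strand within 27.61 kb, and the fasting effects were 0.07, 0.00, 0.20 and 0.30. Of these only Apoc2 was called; Apoc4, which is not a member, had an adjusted p of 0.084. The ratio of Apoc2 to Apoc1 counts was 0.110 ± 0.0253 in fed and 0.136 ± 0.0334 in fasted mice (SD, n = 15 each). That of Mttp to Apob was 0.206 ± 0.0405 and 0.224 ± 0.0421, a difference smaller than the SD.

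**Figure D4:**
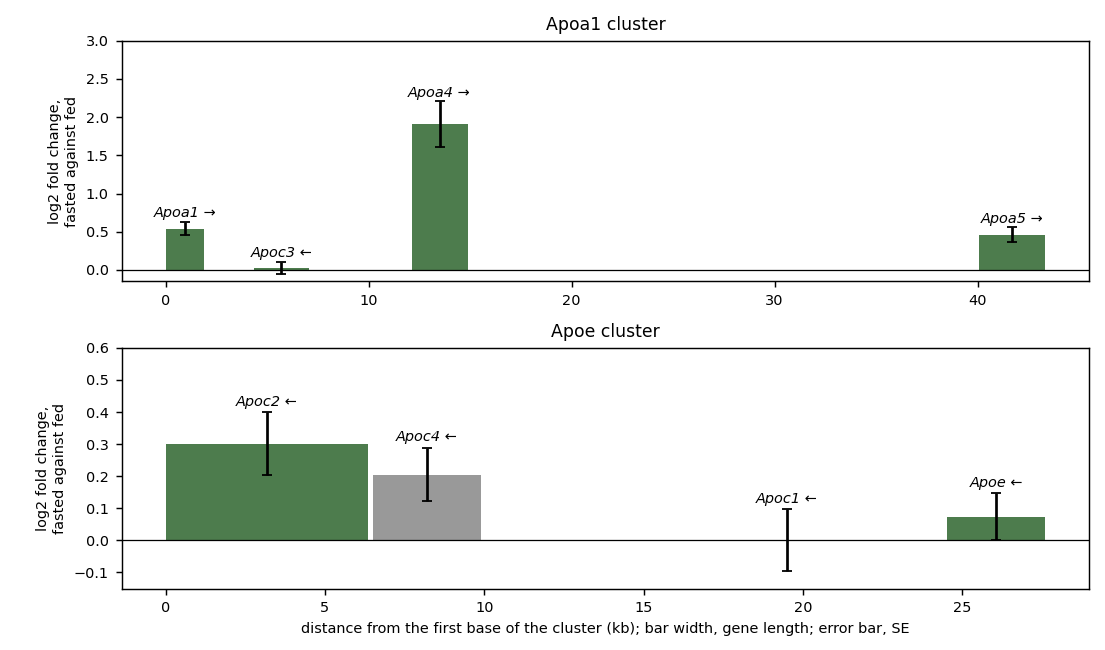
Average fasting effect (log2 fold change, bar; SE, error bar) of the genes of both clusters, placed by distance from the first base of the cluster in kb, with bars as wide as the genes. Arrows give the strand, and green marks members and grey Apoc4. Apoc3 (0.03) lies between Apoa1 (0.54) and Apoa4 (1.91), and the bar of Apoc1 has a height of 0.00.

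The average HF against LF effect called 0 of the 10 in edgeR, with 2 at an unadjusted p below 0.05, and 0 in DESeq2 and limma voom. In this comparison edgeR called 3.49% of all genes and 15.8% had an unadjusted p below 0.05. The 2 were Apoa5 (-0.26 ± 0.09, adjusted p = 0.12) and Mttp (-0.19 ± 0.08, adjusted p = 0.24). Apoa5 was called without KO HF fasted replicate 2 (-0.34, adjusted p = 0.031) or without KO LF fasted replicate 1 (-0.30, adjusted p = 0.037). The diet effect on Apoa4 had opposite signs in fed and fasted mice: 1.41 ± 0.62 in fed WT and 0.69 ± 0.56 in fed KO mice, and -1.51 ± 0.56 in fasted WT and -1.80 ± 0.63 in fasted KO mice, none of which passed in edgeR (adjusted p = 0.87, 0.87, 0.24 and 0.17, where 0.0778%, 0.00865%, 1.12% and 1.68% of all genes did). Mttp in fasted KO mice was at -0.54 ± 0.17 (adjusted p = 0.11). For diet in fasted KO mice DESeq2 called 2 members, where edgeR and limma voom called 0. In fed WT mice, Apoa2 and Apoa4 were higher on HF than on LF diet without overlap (3.92% of all genes were) and Apoa1 lower (4.3%). With WT LF fed replicate 2 kept, Apoa2 alone stayed apart. That mouse had 784 CPM of Apoa4 and 2528 CPM of Apoa1. In fed KO mice, Apob and Apoe were higher without overlap (3.13% of all genes), with Apob at 0.35 ± 0.18 and an unadjusted p of 0.053.

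Genotype was compared because the study asks what the loss of MCAD changes in the liver. Averaged over the conditions edgeR called 0 members, with 0 at an unadjusted p below 0.05 and 0 by DESeq2 and limma voom, where 0.00865% of all genes, Acadm alone, were called and 2.9% had an unadjusted p below 0.05. Apart from Apoa1 and Apoa4, no member had a 95% interval of the KO to WT difference that reached beyond 0.28 from zero on the log2 scale. For Apoa1 it was -0.01 to 0.35 (0.17 ± 0.09) and for Apoa4 -0.81 to 0.39 (-0.21 ± 0.29). For Apob it was -0.11 to 0.25 and for Mttp -0.16 to 0.18.

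Within each condition, KO and WT mice were compared in a fit of their own 7 or 8 mice. Again 0 of 10 members were called in each of the 4 conditions (background 0.0193% in LF fed, 0.0104% in LF fasted, 0.00998% in HF fed and 0.0096% in HF fasted mice), and DESeq2 and limma voom also called 0. At an unadjusted p below 0.05 there were 2 in LF fed mice (5.61% of all genes), Apoa2 (0.23 ± 0.09) and Apob (-0.28 ± 0.13), and 1 in HF fed mice (3.92%), Apoa1 (0.33 ± 0.15). Apoa1 in HF fed mice was higher in all 4 KO than in all 4 WT mice (4406 to 6716 against 3951 to 4383 CPM; 1.28% of all genes were), with a two-sided exact permutation p of 0.0286, the smallest that 4 mice against 4 allow, and 0.90 after adjustment over 40 such tests. Apoa2 in LF fed mice was likewise higher in all 4 KO than in the 3 WT mice (2.75% of all genes were). Its two-sided exact permutation p of 0.057 is the smallest that 4 mice against 3 allow, so this test could not pass 0.05. Apoa4 in HF fed mice was at 276 ± 97.7 CPM in KO and 515 ± 303 CPM in WT (SD, n = 4 each; log2 difference -0.90 ± 0.45, two-sided exact permutation p = 0.14), and the ranges overlapped.

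The genes whose levels followed each member most closely were listed from the Pearson correlation of log2 CPM over the 30 mice, which share the fed and fasted groups. These are descriptions. For Apoa4 they were Cntnap1 (r = 0.90), the lipid droplet protein gene Hsd17b13 (0.88) and Acadl (0.88), which encodes long-chain acyl-CoA dehydrogenase. For Apoa1 they were Hacd3 (0.89), Xrn2 (0.85) and Serinc1 (0.83), and for Mttp Hacd3 (0.87), Reep3 (0.87) and Agpat3 (0.87). Apoa2 was closest to Lcat (0.87), the enzyme that esterifies HDL cholesterol, Ephx1 (0.81) and Lims2 (0.80). Apoa5 was closest to Rbp4 (0.87), the plasma carrier of retinol, Ei24 (0.85) and Aass (0.85), and Apob to Mllt6 (0.80), Slc4a4 (0.78) and mt-Nd2 (0.77). The remaining members had lower values: Apoc1 to Proc (0.80), Ndufv3 (0.75) and Mrpl52 (0.74), Apoc2 to Cgref1, Tmem135 and Ech1 (each 0.73), Apoc3 to Fxyd1 (0.75), Apoc4 (0.73) and Cyp2d22 (0.72), and Apoe to Ccdc107 (0.74), Fuca1 (0.67) and Gstk1 (0.67). Between members, the highest r was 0.79 for Apoa4 with Mttp and 0.78 for Apoc1 with Apoc3.

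Other genes of lipoprotein metabolism moved in both directions with fasting, whereas all called members were higher. Of all genes tested, 9.77% were called higher and 9.14% lower, and the lists below were not tested against these shares. Of 16 genes of particle assembly and export from the endoplasmic reticulum, 3 rose and 3 fell: Mia3, which exports large cargo, was higher by 0.38 ± 0.08, and the esterases Ces1g and Aadac were lower, at -0.68 ± 0.16 and -0.64 ± 0.11. P4hb, protein disulfide isomerase and the partner subunit of Mttp, was lower too (-0.29 ± 0.08, adjusted p = 0.0060), and is named after its value had been seen. Of 9 other apolipoproteins and HDL enzymes tested, 2 rose, Lcat (0.53 ± 0.10) and Apon (0.30 ± 0.09), and 0 fell. Of 8 genes that control lipases, 1 rose and 3 fell; Angptl4, an inhibitor of lipoprotein lipase, rose by 2.16 ± 0.19, and its relative Angptl8 was at -1.79 ± 0.27 and the lipase chaperone Lmf1 at -0.54 ± 0.16. The medians of these lists were -0.01, 0.09 and -0.16.

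Of 11 genes of receptors and cholesterol efflux, 2 rose and 2 fell. Mylip, a ubiquitin ligase, rose by 0.62 ± 0.20. Of 4 genes of Apob mRNA editing, Rbm47 fell (-0.38 ± 0.09) and 0 rose. Of 23 transcription regulators, 8 rose and 6 fell. The strongest changes among them were those of Srebf1 (-2.40 ± 0.22) and Mlxipl (-0.96 ± 0.08), which drive lipogenesis, and of Nr0b2 (-0.94 ± 0.22). The 8 that rose, named here after their values had been seen, were Creb3l3, Cebpb, Ppara, Nr2f2, Nr1h4, Hnf4a, Foxo1 and Rxra, with values from 0.82 for Creb3l3 to 0.29 for Rxra.

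**Figure D5:**
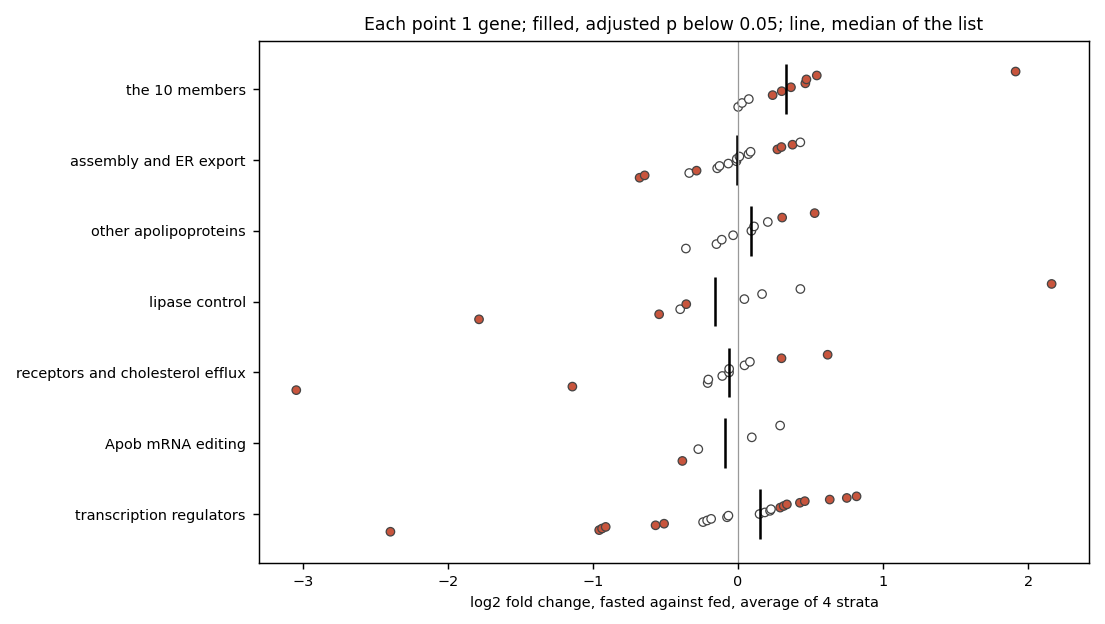
Average fasting effect (log2 fold change) of the 10 members and of the genes of 6 related lists; each point is a gene, filled when its adjusted p was below 0.05, and the line is the median of the list. Points of the members run from 0.00 to 1.91 with a median of 0.33, while the lists of receptors, lipase control and regulators hold filled points on both sides of zero.

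For diet, edgeR called 2 genes of assembly and export higher and 0 lower, 2 other apolipoproteins and HDL enzymes higher and 1 lower, 1 receptor gene each way, 2 regulators higher and 1 lower, and 0 genes of lipase control and of Apob mRNA editing. Of all genes tested, 3.49% were called for diet. Ces1g (1.07 ± 0.16) and Sort1 (0.64 ± 0.18), which sorts Apob, were higher on the HF diet, as were Saa4 (0.83 ± 0.16) and Pon1 (0.26 ± 0.07), while Apom, an HDL apolipoprotein, was lower (-0.50 ± 0.09). Among receptors Lrp1 was higher (0.26 ± 0.07) and the heparan sulfate proteoglycan Sdc1 lower (-0.35 ± 0.10). Among regulators Nr1d2 (0.59 ± 0.12) and Foxa2 (0.50 ± 0.11) were higher and Ppargc1a lower (-0.54 ± 0.15). For genotype, edgeR called 0 genes of these lists, where 0.00865% of all genes, Acadm alone, were called.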

How the data were processed

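Total RNA of 32 mouse samples labelled liver was sequenced from the 3′ end (QuantSeq). The authors aligned reads with HISAT 0.1.5, sorted them with SAMtools 1.2 and deposited raw read counts per Ensembl gene from HTSeq 0.6.1p1 in union mode; the strand setting is not given in the sources used here. From these counts, edgeR 4.0.16 (R 4.3.3; TMM, filterByExpr, robust quasi-likelihood F test, Benjamini-Hochberg over all genes tested) was fitted to 30 mice in 8 groups, and to the 7 or 8 mice of each condition for KO against WT, with two-sided exact permutation tests (SciPy 1.17.1) beside it. All 10 members passed the filter. DESeq2 1.42.0, limma 3.58.1 (voom), other scalings and filters, lane, age, a replicate block, and each mouse left out were alternatives; keeping WT LF fed replicate 2 and leaving out the acinar pancreas mice were added after the data had been seen. Scripts were tested on simulated data. No pair of same-group libraries was a duplicate. Related genes were named as the 3 of each list with the largest called change. Members, lists and tests were chosen with earlier results of these data known, and the N of the HNF4-type motif was admitted after the sequences had been seen. Gene positions are those of GENCODE vM21 (GRCm38); 19913 of 20076 identifiers had a symbol. Total counts limit the precision of low genes. Some genes of the related lists are not reported here by name.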

Additional observations from a re-analysis of the deposited data

Results flagged for a closer look

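Among 60 groups of 4 mice, 1 for each member and full group, 4 held a mouse set apart from the other 3 by more than Dixon's 95% critical value, where chance flags about 1 in 20 groups. In KO HF fed mice, replicate 4 stood apart for Apob, with 637 CPM, and for Apoc1, with 4887 CPM. In WT HF fasted mice, replicate 1 stood apart for Apoc1, with 5161 CPM, and for Apoc3, with 3849 CPM. Their part in the results is given by the fits that leave out each mouse.

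The fasting effect on Apoa4 differed between the diets by -2.71 on the log2 scale (edgeR interaction, adjusted p = 0.015).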

How the results depend on the processing

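Apoc1, Apoc3 and Apoe had fasting effects near zero whose sign turned. That of Apoc1 was -0.0616 with all 32 mice, -0.00376 with DESeq2, -0.00991 with limma voom, -0.00378 with DESeq2 size factors, -0.0877 with total counts, -0.00313 without the filter, -0.0361 with age as a term and -0.192 in lane 8. That of Apoc3 was -0.0398 with 32 mice, -0.0610 with total counts, -0.00415 with age and -0.148 in lane 8, and that of Apoe -0.0164 with total counts and -0.0239 in lane 8. For diet, lane 8 gave Apoa1 0.0866, Apoa4 0.0892 and Apoc2 0.0714, and Apoc3 was -0.0337 with 32 mice and -0.0566 in lane 7. For genotype, lane 7 gave Apoa1 -0.0144, Apoa2 -0.0660, Apoc3 -0.0463 and Mttp -0.111. Lane 8 gave Apoa4 0.262, Apoa5 0.00751, Apoc2 0.0450 and Apoe -0.0391. With 32 mice Apoa2 was -0.0255, Apob -0.00434, Apoc3 -0.0263, Apoe -0.0583 and Mttp -0.0495, and with 31 mice Apoa5 was 0.0102. Total counts gave Apoe -0.00769 and Mttp -0.00490, the lane term gave Apoe -0.00362, and age gave Apoe -0.00582 and Mttp -0.0284. Fasting by diet with total counts was 0.0249 for Apoa1, 0.0658 for Apoc1 and 0.00308 for Apoc3.

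Members called for fasting on average numbered 1 with 32 mice and 1 in lane 7; in WT LF mice 5 with 31 mice, 0 with 32 and 5 with DESeq2; and in KO LF mice 1 with 32. DESeq2 called 2 for diet in fasted KO mice and 1 for fasting by diet in WT mice. Fasting by diet called 0 with 31 and 0 with 32 mice. Of all genes, fasting called 344 in lane 7 and 1449 in lane 8 (2187 in the 30 mice); diet called 81 with 32 mice, 53 in lane 7 and 85 in lane 8 (404); and fasting by diet called 156 with 28 mice, 152 with 31, 22 with 32 and 430 with DESeq2 (285). The cause was not tested.

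With each mouse left out in turn, fasting effects ranged from -0.0663 to 0.0541 for Apoc1 and -0.0181 to 0.0592 for Apoc3, the diet effect from -0.0114 to 0.0521 for Apoc3, genotype effects from -0.00082 to 0.0541 for Apoa2, -0.0847 to 0.0246 for Apoa5, -0.0247 to 0.0400 for Apoe and -0.0227 to 0.0477 for Mttp, and fasting by diet from -0.189 to 0.0108 for Apoa1 and -0.167 to 0.0741 for Apoc1. Members called ranged from 1 to 5 for fasting in WT LF mice, 0 to 1 for diet, 0 to 2 for diet in fasted KO mice (1 without KO HF fasted replicate 2, 2 without KO LF fasted replicate 3) and 1 to 2 for fasting by diet. Genes called ranged from 1 to 2 for genotype (2 without WT HF fed replicate 2) and from 170 to 333 for fasting by diet (178 without KO HF fasted replicate 1, 170 without WT LF fed replicate 3). Replicate numbers did not pair the mice: the median correlation of same-numbered mice was 0.006 over 98 pairs, and 9 of 30 correlated best with their own number. With the replicate block 7 members were called for fasting and 1 for fasting by diet, and 2124 genes for fasting.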
